A study of Mus musculus with 24 samples.

Results

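A set of 9 genes that carry B cell identity or the switch to the antibody-secreting plasma cell was followed in 4 kinds of activated mouse immune cells, with and without the microRNA miR-155. They were taken by symbol from every count file, 9 of the 20673 genes listed there, and all 9 were found in all 24 libraries. Pax5, Ebf1, Bach2 and Bcl6 stand on the B cell side of the switch, and Prdm1, Xbp1, Mzb1, Jchain and Sdc1 on the plasma cell side. The 8 groups were B cells, dendritic cells, macrophages and T cells of mice that lack miR-155 (knockout, KO) or are wild type (WT), each with 3 libraries, all from C57BL/6J mice and all stimulated. B cells received LPS at 25 ug/ml together with IL-4 at 6.5 ng/ml. Dendritic cells came from mice that carried a melanoma that made Flt3 ligand, so in both genotypes they had formed in tumour-bearing hosts, and were treated with GM-CSF at 20 ng/ml and LPS at 100 ng/ml. Peritoneal macrophages, drawn out by thioglycollate, had LPS at 100 ng/ml, and CD4 T cells, sorted as negative for CD25 and CD44, were stimulated by anti-CD3 and anti-CD28 beads. The study asks how the cell type shapes what miR-155 regulates. Its design text calls the 3 libraries of a group sequencing replicates without saying whether they came from separate animals, and the p-values below therefore measure only how far these libraries spread, which may be technical noise.

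PAX5 and EBF1 are the transcription factors that commit a cell to the B lineage and hold it there. BCL6 and BACH2 are repressors that keep an activated B cell from secreting antibody, in part by repressing Prdm1, whose product BLIMP1 in turn represses Pax5 and Bcl6. XBP1, made active when the stress sensor IRE1 splices its messenger RNA, expands the secretory apparatus, MZB1 is an endoplasmic reticulum cofactor of antibody assembly, the J chain joins IgM and IgA into polymers, and SDC1 (CD138) is the surface proteoglycan by which plasma cells are recognised. The same regulators work outside B cells: BACH2 and BCL6 in T cells, BLIMP1 in T cells and myeloid cells, and XBP1 in dendritic cells. miR-155, induced when immune cells are activated, pairs through its seed with sites in 3' UTRs and lowers the level of the transcripts that hold them.

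The mature microRNA removed in the KO is shown first, with its seed (bases 2 to 8) in capitals, from RefSeq on GRCm38.p6 (chr16:84714143-84714165, plus strand), followed by the 1 site of 7 or more matched bases in the 9 genes. That site is in the 3' UTR of Ebf1 in GENCODE M21 on GRCm38 (chr11:45006817-45006823, plus strand), with the matched bases in capitals.
mmu-miR-155-5p: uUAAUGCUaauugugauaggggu
Ebf1 7mer-A1 site: acgcattttgtGCATTAAatttgggggaga
Bcl6 and Jchain held a 6-base match only, and Pax5, Bach2, Prdm1, Xbp1, Mzb1 and Sdc1 held none. Over all 19461 genes with a 3' UTR, 12.8% held an 8mer or 7mer. A match is a description of these letters and was not shown here to be bound.

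The cell type labels were checked against marker genes. Summed markers of B cells came to 3560 ± 159 CPM in KO B cells and 3680 ± 172 CPM in WT B cells (SD, n = 3 each), where CPM is counts scaled to a common library total. The same 7 genes summed to 21.4 and 10.5 CPM in KO and WT dendritic cells, 107 and 108 CPM in KO and WT macrophages (of which Cd22 made up 90.3%), and 43.5 and 27.3 CPM in KO and WT T cells. Each other cell type was high in the sum of its own markers. Conventional dendritic cell markers came to 14900 and 11400 CPM in KO and WT dendritic cells. Macrophage markers came to 36400 and 37300 CPM in KO and WT macrophages, and T cell markers to 2060 and 2170 CPM in KO and WT T cells. Fscn1 made up 52.0% of the dendritic cell sum, at 8390 CPM in KO and 5300 CPM in WT dendritic cells. Every KO dendritic cell library exceeded every WT one in that sum (exact permutation p = 0.1). Itgax, of the same list, was higher in macrophages (394 CPM in KO, 262 in WT) than in dendritic cells (29.0 and 31.3). Xcr1, Clec9a and Cd209a were at no more than 5.61 CPM in either dendritic cell group mean. Gene counts ran from 7428821 to 14219823 per library, and every pair of libraries within a group differed by more than counting noise. The gene for miR-155 is not among the counted symbols used here, so the knockout was not checked on its own target.

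In WT cells Pax5, Ebf1 and Mzb1 were higher in B cells than in the other 3 cell types, while Bach2 was highest in T cells, Prdm1 in the myeloid cells and Sdc1 in macrophages. Levels were also set per kilobase of coding sequence. The counts may include reads in UTRs, which this scale leaves out, so it compares different genes only roughly. The longest annotated 3' UTR has 6749 bases in Pax5 and 303 in Mzb1. In WT B cells Mzb1 stood at 490 CPM per kb, Xbp1 at 330, Pax5 at 183 and Ebf1 at 33.2. Bach2 stood at 32.8, Bcl6 at 15.6, Jchain at 8.21, Prdm1 at 6.32 and Sdc1 at 2.66. On this scale 2 genes of the secretory side, Mzb1 and Xbp1, stood highest of the 9 in the activated B cells, above Pax5. The plasma cell markers Jchain and Sdc1 and the plasma cell regulator Prdm1 stood lowest. KO B cells gave the same order, from Mzb1 (554 CPM per kb) through Xbp1 (361) and Pax5 (166) to Sdc1 (3.79), except that Bach2 stood just above Ebf1. Among neighbours in that order, Ebf1 and Bach2 did not separate in either genotype (30 and 30.5 CPM per kb in KO B cells, 33.2 and 32.8 in WT B cells). Jchain and Prdm1 lay close, with the mean of Jchain the higher in both genotypes (13.4 and 11.7 CPM per kb in KO B cells, 8.21 and 6.32 in WT B cells). Their order may depend on the 3' UTRs left out (801 bases in Jchain, 2490 in Prdm1).

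**Figure D1:**
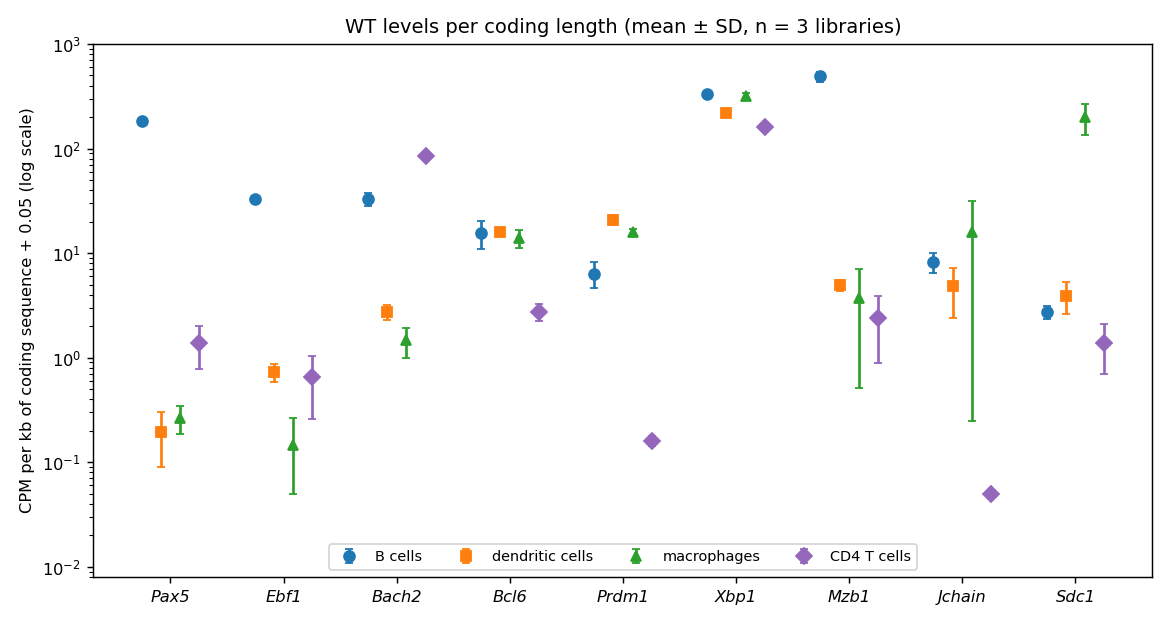
Levels of the 9 genes in WT cells of the 4 types, as CPM per kb of coding sequence plus 0.05 on a log axis, with points for the mean of 3 libraries and bars for the SD. Pax5, Ebf1 and Mzb1 stand highest in B cells, Bach2 highest in T cells, and Sdc1 and Prdm1 are higher in macrophages than in B cells.

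Pax5 and Ebf1 were near 0 outside the B cells. Pax5 stood at 259.3, 261.1 and 244.6 CPM in the 3 WT B cell libraries, against at most 0.37 CPM in any WT dendritic cell library, 0.41 in any WT macrophage library and 2.84 in any WT T cell library. The log2 difference of WT B cells from WT T cells was 7.08 (SE 0.21, adjusted p = 5.96e-11, edgeR quasi-likelihood test with Benjamini-Hochberg adjustment over all genes). Ebf1 stood at 60.24, 57.41 and 59.39 CPM in WT B cells, and its highest value in any other WT library was 1.86 CPM, in a T cell library. Its log2 difference was 5.57 (SE 0.32) from WT dendritic cells and 5.77 (SE 0.31) from WT T cells. The dendritic cell and macrophage values of both genes are a few counts per library, so their folds rest on the B cell level and on those few counts.

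Bach2 was lower in WT B cells than in WT T cells. WT B cells had 89.27, 88.66 and 69.81 CPM of Bach2, against 209.1, 224.1 and 201.3 CPM in WT T cells, 5.56, 7.82 and 7.08 CPM in WT dendritic cells and 2.89, 4.87 and 2.86 CPM in WT macrophages. The ranges do not overlap, with log2 differences of WT B cells of -1.37 (SE 0.15, edgeR adjusted p = 5.71e-06) from T cells, 3.57 (SE 0.18) from dendritic cells and 4.51 (SE 0.19) from macrophages. Bcl6 overlapped in range in 3 cell types, with 34.96, 22.35 and 41.79 CPM in WT B cells, 33.35, 33.08 and 35.55 CPM in WT dendritic cells and 27.35, 25.00 and 36.25 CPM in WT macrophages. WT B cells did not pass the test against either (95% interval of the log2 difference -0.51 to 0.38 from dendritic cells and -0.31 to 0.58 from macrophages). WT T cells, at 6.44, 6.19 and 4.52 CPM, lay below all of these, with a log2 difference of WT B cells of 2.51 (SE 0.23).

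Prdm1, the master regulator of the plasma cell, was higher in the myeloid cells than in B cells. WT B cells had 12.34, 16.26 and 21.73 CPM, against 48.95, 54.12 and 60.90 CPM in WT dendritic cells, 41.79, 38.86 and 45.13 CPM in WT macrophages and 0.27, 0.35 and 0.27 CPM in WT T cells. The log2 differences of WT B cells were -1.73 (SE 0.17, edgeR adjusted p = 6.21e-07) from dendritic cells, -1.35 (SE 0.16, adjusted p = 5.78e-06) from macrophages and 5.76 (SE 0.30) from T cells. Sdc1, the textbook plasma cell surface marker, was almost wholly a macrophage transcript here. It stood at 2.47, 2.46 and 3.15 CPM in WT B cells, against 258.3, 222.6 and 127.7 CPM in WT macrophages, a log2 difference of -6.26 (SE 0.34, edgeR adjusted p = 2.31e-09). WT dendritic cells (2.37, 4.81 and 4.60 CPM) and WT T cells (0.63, 1.39 and 2.04 CPM) did not pass the test against WT B cells.

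Xbp1 was abundant in all 4 cell types. WT B cells had 267.5, 293.8 and 279.2 CPM, against 183.8, 177.4 and 195.3 CPM in WT dendritic cells, 283.3, 250.1 and 281.2 CPM in WT macrophages and 128.3, 128.7 and 149.6 CPM in WT T cells. B cells exceeded dendritic cells by 0.57 (SE 0.09) and T cells by 1.04 (SE 0.09) on the log2 scale, while the difference from macrophages was 0.02 (95% interval -0.18 to 0.22). Counts per gene do not separate the spliced from the unspliced form of Xbp1. Mzb1 followed the B cells: 249.4, 270.4 and 309.6 CPM in WT B cells and no more than 4.19 CPM in any other WT library, with log2 differences of 6.63 (SE 0.36) from dendritic cells, 7.03 (SE 0.37) from macrophages and 7.68 (SE 0.39) from T cells. Jchain was low everywhere, at 2.96, 4.06 and 4.72 CPM in WT B cells, against 0.95, 3.01 and 2.86 CPM in WT dendritic cells and 3.51, 3.00 and 16.13 CPM in WT macrophages, without a call between B cells and either. No WT T cell library had a count of Jchain, so WT B cells were at least 14.8-fold higher when the T cells are set to 3 counts per library.

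In all, 6 of the 9 genes passed the test between WT B cells and WT dendritic cells, where 78.5% of all tested genes did, and 6 between WT B cells and WT macrophages, where 80.4% did. Between WT B cells and WT T cells 8 passed, where 50.3% of all tested genes did. The genes whose log2 CPM ran most like each of the 9 over all 24 libraries are given as a description, since the libraries share 4 cell types. Pax5 ran with Ms4a1 (CD20, Pearson r of 0.993) and 1700030K09Rik (0.984), Ebf1 with Tnfrsf13c (the BAFF receptor, 0.987), Zcchc18 (0.983) and BC035044 (0.979), and Mzb1 with Fcrl5 (0.983), Stau2 (0.98) and Cd79b (0.977). Bach2 ran with the maintenance DNA methyltransferase Dnmt1 (0.994), Diap3 (0.991) and the cyclin Ccne2 (0.989). Prdm1 ran with Casp1 (0.99), Spi1 (PU.1, 0.985) and Prkcd (0.981), and Sdc1 with Mcfd2 (0.994), Cgrrf1 (0.988) and Lrpap1 (0.986). The best matches of Xbp1 (Lyl1, 0.962, Blnk, 0.956, and 5430427O19Rik, 0.953), Bcl6 (Car13 and Slc2a6, both 0.962, and Tcf4, 0.961) and Jchain (Lrrk2, 0.92, Ddx60, 0.918, and Ppp3ca, 0.918) were lower.

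Between KO and WT B cells, none of the 9 genes passed the adjusted test, where 3.2% of all 10151 tested genes did, and DESeq2 also called none. Other settings did make calls. With no filter on low counts Jchain passed, and in the fit of all 24 libraries Prdm1 did. With the replicate number as a block, Pax5, Prdm1, Xbp1, Mzb1 and Jchain passed, where 12.4% of all tested genes did. The closing section tells why the numbers were not taken to pair these libraries. At an unadjusted p under 0.05 the edgeR test gave 6 of 9, Pax5, Ebf1, Prdm1, Xbp1, Jchain and Sdc1, where 16.5% of all tested genes had one. The fitted log2 changes were below 0 for Pax5, Ebf1 and Bach2, and above 0 for Bcl6 and for the 5 genes of the plasma cell side. Every KO library lay above every WT library for Prdm1, Jchain and Sdc1 and below every WT library for Pax5 and Ebf1, while Bach2, Bcl6, Xbp1 and Mzb1 overlapped. Of all genes with a mean of 1 count or more in these libraries, 20.7% had groups that do not overlap, 11.0% with KO above and 9.67% with KO below.

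**Figure D2:**
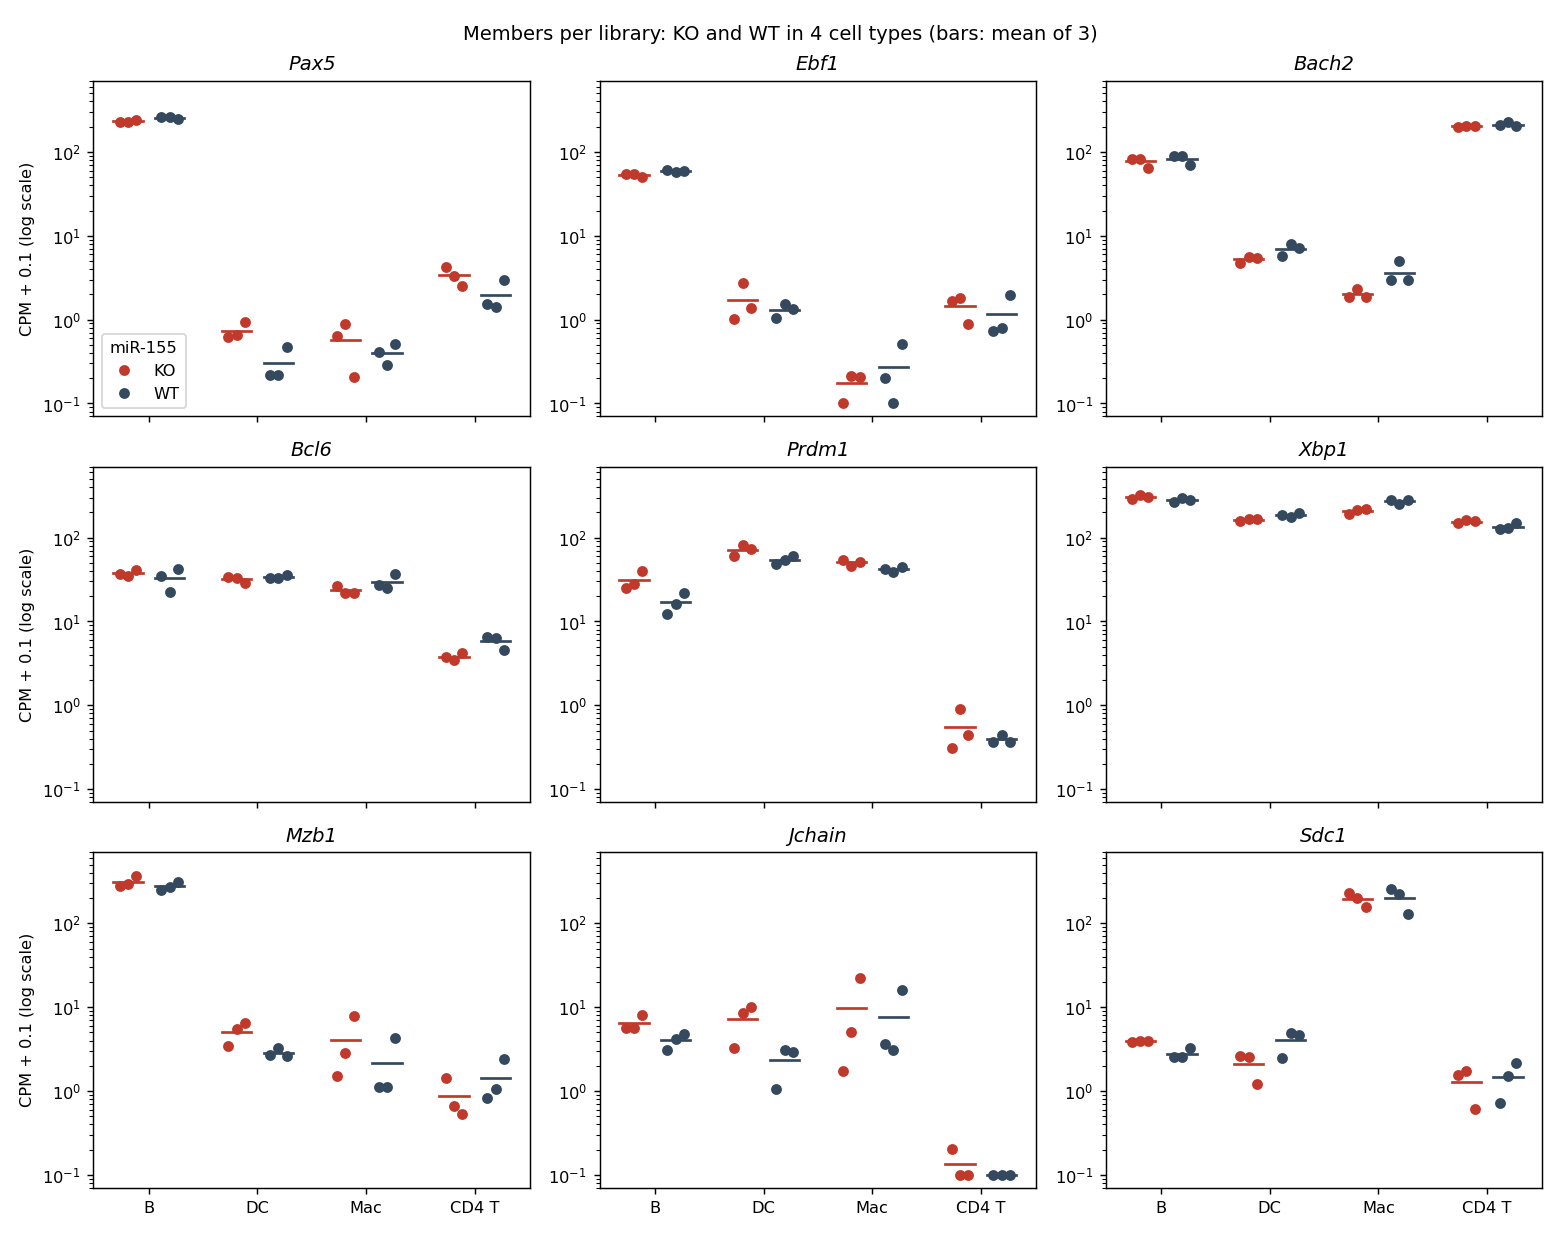
The 9 genes in each library as CPM plus 0.1 on a log axis, 1 panel per gene, with KO (red) left of WT (dark blue) within each cell type and lines at the mean of 3. In B cells the KO points lie above the WT points for Prdm1, Jchain and Sdc1 and below them for Pax5 and Ebf1, at distances the log axis barely shows for the last pair.

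The 2 lineage factors differed little. Pax5 had 229.2, 225.2 and 242.4 CPM in KO B cells, against 259.3, 261.1 and 244.6 CPM in WT B cells. The highest KO library and the lowest WT library are nearly level, and the log2 change was -0.14 (SE 0.05, 95% interval -0.24 to -0.03, edgeR adjusted p = 0.182). Ebf1 had 54.77, 54.48 and 50.74 CPM in KO B cells, against 60.24, 57.41 and 59.39 CPM in WT B cells, a log2 change of -0.15 (SE 0.07, adjusted p = 0.291, edgeR). Ebf1 is the gene with the site printed above. Its mean in KO B cells was the lower of the 2 genotypes, without a call, and a link of the site to this value was not tested.

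The 2 repressors did not separate the genotypes. Bach2 had 83.30, 82.91 and 64.44 CPM in KO B cells, against 89.27, 88.66 and 69.81 CPM in WT B cells. The libraries numbered 3 were the lowest of both genotypes, and the log2 change was -0.10 (SE 0.12, 95% interval -0.38 to 0.18). Bcl6 had 36.48, 35.13 and 40.80 CPM in KO B cells, against 34.96, 22.35 and 41.79 CPM in WT B cells. The log2 change was 0.19 (SE 0.22, 95% interval -0.34 to 0.71), and -0.04 without WT replicate 2, the lowest library.

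Prdm1 had the largest fitted change of the 9 in B cells. It stood at 25.28, 28.26 and 39.49 CPM in KO B cells, against 12.34, 16.26 and 21.73 CPM in WT B cells, means of 31.0 ± 7.49 and 16.8 ± 4.71 CPM (SD, n = 3 each). The groups do not overlap, the libraries numbered 3 were the highest of both genotypes, and the log2 change of 0.88 (SE 0.24, 95% interval 0.30 to 1.46) did not pass the test (edgeR adjusted p = 0.135). Without WT replicate 3 it did, at 1.10 and an adjusted p of 0.032, and likewise in the fit of all 24 libraries together, at an adjusted p of 0.015 (both edgeR).

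Of the secretory genes, Jchain came nearest to the threshold. It had 5.56, 5.60 and 7.97 CPM in KO B cells, against 2.96, 4.06 and 4.72 CPM in WT B cells, a log2 change of 0.69 (SE 0.20, 95% interval 0.26 to 1.12, edgeR adjusted p = 0.0749). With no filter on low counts it passed (adjusted p = 0.022, edgeR). Sdc1 had 3.74, 3.90 and 3.85 CPM in KO B cells, against 2.47, 2.46 and 3.15 CPM in WT B cells, a log2 change of 0.51 (SE 0.20, adjusted p = 0.19, edgeR). Xbp1 had 288.9, 323.2 and 307.2 CPM in KO B cells, against 267.5, 293.8 and 279.2 CPM in WT B cells. A single KO library lies within the WT range, and the log2 change was 0.13 (SE 0.06, adjusted p = 0.253, edgeR). Mzb1 had 278.6, 291.0 and 368.4 CPM in KO B cells, against 249.4, 270.4 and 309.6 CPM in WT B cells, with overlap and a 95% interval of the log2 change of -0.10 to 0.45.

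Markers of plasma cells other than the 9 genes summed to 214 ± 29.5 CPM in KO B cells and 177 ± 15.3 CPM in WT B cells (SD, n = 3 each, exact permutation p = 0.2). Sec11c made up 71.6% of that sum, at 145 CPM in KO and 135 CPM in WT B cells, and Tnfrsf17 (BCMA) was at 0. The rest had higher means in KO B cells: Fam46c (33.15 CPM in KO, 16.47 in WT), Eaf2 (18.4 and 14.5), Fkbp11 (10.2 and 4.90) and Derl3 (8.07 and 5.32). Of these only Fam46c passed the edgeR test. T cell markers, of which Lck made up 98.4%, summed to 26.8 ± 1.22 CPM in KO B cells and 34.2 ± 0.28 CPM in WT B cells (exact permutation p = 0.1, Cd3g and Trat1 at 0). Lck itself had 26.1 CPM in KO and 33.8 CPM in WT B cells. No other gene of that list had a group mean above 0.48 CPM in B cells. Cd5 (0.48 CPM in KO, 0.249 in WT) and Cd3d (0.149 and 0.0329) were higher in KO. The part of either set of markers in the results was not tested. In these bulk samples, more plasma cells and more of the RNA per cell cannot be told apart.

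Genes of the pathways around the 9 were counted in 5 lists that leave the 9 out. In B cells 2.09% of all tested genes rose in KO cells and 1.11% fell, and the median log2 change over all genes was -0.002. Of 28 B cell identity factors and surface genes, 2 rose, 3 fell and 23 were not called, with a median log2 change of -0.11. Spi1 (PU.1) rose to 84.4 ± 4.78 CPM in KO B cells, against 56.7 ± 3.14 CPM in WT B cells (log2 change 0.57, edgeR adjusted p = 0.000151), and the costimulatory receptor Cd40 rose by 0.22. The kinase Blk fell to 55.5 ± 5.19 CPM in KO B cells, against 73.3 ± 2.82 CPM in WT B cells (log2 change -0.40), and the BAFF receptor Tnfrsf13c fell by 0.35 and Spib by 0.24 on the log2 scale. Irf8 was not called, at 386 ± 10.4 CPM in KO B cells and 397 ± 6.06 CPM in WT B cells. The count of 5 called identity genes was 2 without KO replicate 2 or WT replicate 2, 3 without WT replicate 1 or 3, and 1 in the fit of the 24 libraries together.

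Of 20 tested genes that work with BCL6 and BACH2 or mark germinal centres, 2 rose and 1 fell, with a median of -0.05. Bach1, the close relative of Bach2, rose to 20.9 ± 1.47 CPM in KO B cells, against 9.95 ± 0.328 CPM in WT B cells (log2 change 1.07, edgeR adjusted p = 1.16e-05), while Bach2 itself had no call. The histone deacetylase Hdac7 fell by 0.48 on the log2 scale. Spi1 and Bach1, both called in B cells, carry an 8mer for miR-155 in the 3' UTR, unlike any of the 9, and their sites are shown with the matched bases in capitals (GENCODE M21, GRCm38, all on the plus strand).
Spi1 8mer, chr2:91115437-91115444: ccgccggccatAGCATTAAcccgtcgcccg
Bach1 8mer, chr16:87732188-87732195: atgaacagtttAGCATTAAgggttaatttt
Bach1 7mer-m8, chr16:87732400-87732406: atatattgcatAGCATTAtacatgtatgcc

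Of 18 tested plasma cell factors and surface genes, 1 rose and none fell, with a median of 0.165. The gene that rose was Fam46c, a poly(A) polymerase that stabilises immunoglobulin messenger RNA in plasma cells, at 33.1 ± 5.78 CPM in KO B cells and 16.5 ± 0.852 CPM in WT B cells (log2 change 1.0, edgeR adjusted p = 0.000183). Irf4, which drives Prdm1 in B cells, had 82.3 ± 3.57 CPM in KO B cells and 89.1 ± 10.4 CPM in WT B cells and was not called, and neither was the elongation factor Ell2, which favours secreted antibody transcripts (67.1 ± 3.03 CPM in KO and 65.5 ± 4.11 CPM in WT B cells). The count of 1 was 3 without KO replicate 1 and 2 without KO replicate 3 or WT replicate 2.

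Of 30 tested genes of XBP1 and the unfolded protein response, 4 rose and none fell, with a median of 0.161. Sec24d, a coat subunit of vesicles leaving the endoplasmic reticulum, rose to 29.2 ± 4.32 CPM in KO B cells, against 17.1 ± 2.33 CPM in WT B cells (log2 change 0.77, edgeR adjusted p = 0.00195). The cochaperone Dnajc3, the mannosidase-like degradation factor Edem1 and the disulfide isomerase Creld2 rose by 0.31, 0.28 and 0.31 on the log2 scale. That count depended on single libraries: it was 1 without WT replicate 1 or 2, 6 without KO replicate 1, 7 without KO replicate 3 and 10 without WT replicate 3. It came to 0 with all 24 libraries fitted together and to 11 with no filter on low counts. None of the 10 tested genes linked to BCL6 and BLIMP1 in T cells was called in B cells, by edgeR or DESeq2.

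The promoters of 3 of these 4 genes hold a motif of the unfolded protein response, searched on both strands in the 250 bases before the RefSeq start (GRCm38.p6). So do those of Hspa5, Hsp90b1, Pdia6, Calr, Canx and Syvn1, which are on the same list and were not called in B cells. Their log2 changes in B cells ran from 0.02 for Calr to 0.32 for Hsp90b1. A link of such a motif to the KO change was not tested. The motif ERSE, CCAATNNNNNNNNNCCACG, was in 8 of 27 promoters of the list (29.6%) and in 26 of 15656 promoters of all genes (0.166%). The core of the UPRE, TGACGTGG, was in 1 of 27 (3.7%) and in 122 of 15656 (0.779%), and neither motif was in the promoters of the 8 of the 9 genes that could be matched. The UPRE core and the reverse strand of ERSE share the letters CGTGG. In the windows shown, capitals mark ERSE in Dnajc3 and Creld2 (the reverse strand in Creld2) and the UPRE core in Sec24d.
Dnajc3, chr14:118937682-118937931, plus strand: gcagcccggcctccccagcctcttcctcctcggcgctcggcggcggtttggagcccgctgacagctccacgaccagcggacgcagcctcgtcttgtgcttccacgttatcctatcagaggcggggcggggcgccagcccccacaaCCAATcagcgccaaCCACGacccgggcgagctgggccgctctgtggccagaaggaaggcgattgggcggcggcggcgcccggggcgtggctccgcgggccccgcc
Creld2, chr15:88819396-88819645, plus strand: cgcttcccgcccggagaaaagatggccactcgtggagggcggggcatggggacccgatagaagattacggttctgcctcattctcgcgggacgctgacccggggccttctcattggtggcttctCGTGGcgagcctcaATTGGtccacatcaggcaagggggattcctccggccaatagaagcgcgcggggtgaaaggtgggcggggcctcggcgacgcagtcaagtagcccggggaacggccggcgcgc
Sec24d, chr3:123267246-123267495, plus strand: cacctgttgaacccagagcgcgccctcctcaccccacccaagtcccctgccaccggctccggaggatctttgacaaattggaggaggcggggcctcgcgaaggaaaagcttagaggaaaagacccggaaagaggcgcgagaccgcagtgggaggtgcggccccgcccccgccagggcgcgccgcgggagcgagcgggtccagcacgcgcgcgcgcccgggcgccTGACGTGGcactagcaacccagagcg

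**Figure D3:**
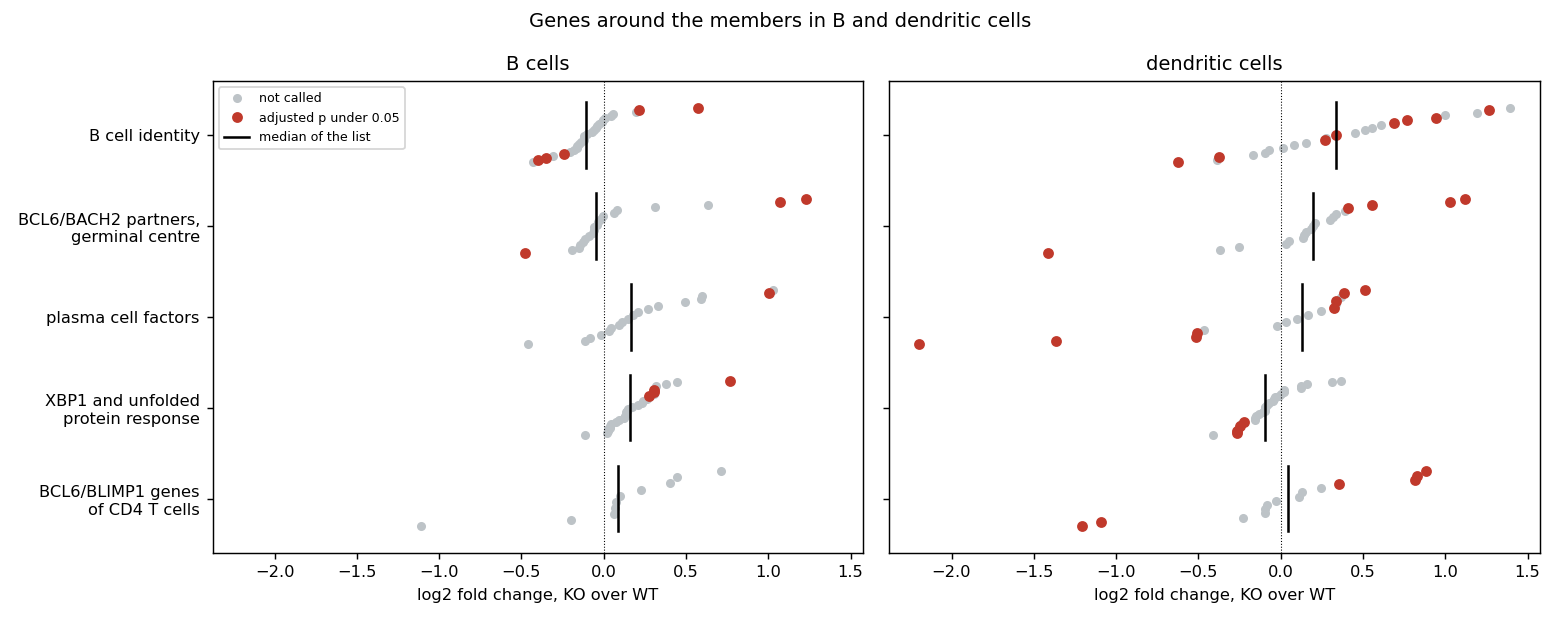
Log2 change of KO against WT for each tested gene of the 5 lists around the 9 genes, in B cells and dendritic cells, with called genes in red and list medians as lines. In B cells the unfolded protein response and plasma cell lists have medians of 0.161 and 0.165 and the identity list one of -0.11.

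In dendritic cells 3 of the 8 tested genes passed the test between KO and WT, all upward: Prdm1, Mzb1 and Jchain. There 21.6% of all tested genes were called, 12.2% upward. Prdm1 had 59.79, 82.31 and 72.89 CPM in KO dendritic cells, against 48.95, 54.12 and 60.90 CPM in WT dendritic cells, so 1 KO library lay within the WT range. Its log2 change was 0.39 (SE 0.12, edgeR adjusted p = 0.0424). Mzb1 rose to 3.30, 5.47 and 6.32 CPM in KO dendritic cells, against 2.60, 3.13 and 2.49 CPM in WT dendritic cells (log2 change 0.87, SE 0.28, edgeR adjusted p = 0.0455). Jchain rose to 3.17, 8.34 and 9.97 CPM in KO dendritic cells, against 0.95, 3.01 and 2.86 CPM in WT dendritic cells (log2 change 1.65, SE 0.48, edgeR adjusted p = 0.0409), without overlap for either gene, as for 38.0% of all genes with a mean of 1 count or more.

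B cell markers moved in the same libraries. They summed to 15.0, 23.5 and 25.7 CPM in KO dendritic cells and 6.98, 10.8 and 13.8 CPM in WT dendritic cells (7 genes, none at 0, exact permutation p = 0.1, the smallest that 3 against 3 libraries can give). Their part in the result was not tested. Markers of plasmacytoid dendritic cells summed to 178 ± 28.8 CPM in KO dendritic cells and 151 ± 35 CPM in WT dendritic cells (exact permutation p = 0.4). Plasma cell markers other than the 9 genes summed to 106, 121 and 117 CPM in KO dendritic cells and 175, 143 and 138 CPM in WT dendritic cells (exact permutation p = 0.1), with every KO library below every WT library. Sec11c made up 88.8% of that sum, at 97.6 CPM in KO and 139 CPM in WT dendritic cells, and Tnfrsf17 was at 0. Derl3 was also lower in KO dendritic cells (0.553 CPM, against 0.61 in WT). Fam46c (14.8 and 11.5 CPM in KO and WT), Eaf2 (1.01 and 0.644) and Fkbp11 (0.367 and 0.241) had the higher mean in KO. Pax5 was too low to be tested in dendritic cells, at 0.53, 0.55 and 0.84 CPM in KO and 0.12, 0.12 and 0.37 CPM in WT libraries.

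Each of the 3 calls depended on single libraries. The call of Prdm1 was lost without KO replicate 2 or 3 or WT replicate 1 or 2 (log2 change 0.29 to 0.38, edgeR adjusted p of 0.071 to 0.19), that of Mzb1 without KO replicate 2 or 3 or WT replicate 1 or 3 (0.67 to 0.83, adjusted p of 0.06 to 0.18), and that of Jchain without any library other than KO replicate 1 (1.27 to 1.91, adjusted p of 0.052 to 0.13). At an unadjusted p under 0.05 edgeR gave 5 of 8, the 3 called genes with Xbp1 and Sdc1, where 35.9% of all tested genes had one. All 3 calls were lost in the fit of all 24 libraries.

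The other genes were not called in dendritic cells. Xbp1 had 156.8, 164.7 and 166.6 CPM in KO dendritic cells, against 183.8, 177.4 and 195.3 CPM in WT dendritic cells, without overlap (log2 change -0.19, SE 0.07, edgeR adjusted p = 0.0934). Sdc1 had 2.51, 2.46 and 1.12 CPM in KO dendritic cells, against 2.37, 4.81 and 4.60 CPM in WT dendritic cells (log2 change -0.93, SE 0.36, edgeR adjusted p = 0.0881). Markers of macrophages, the cells highest in Sdc1, summed to 119, 92.4 and 100 CPM in KO dendritic cells and 144, 179 and 390 CPM in WT dendritic cells (8 genes, none at 0, exact permutation p = 0.1), and their part was not tested. Bach2 had a log2 change of -0.40 (SE 0.19), Bcl6 of -0.09 (SE 0.10) and Ebf1 of 0.39 (SE 0.43), and none of the 3 passed.

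Of the lists in dendritic cells, where 9.42% of all tested genes fell, 6 of 23 tested identity genes rose and 2 fell. Spi1 rose to 394 ± 1.17 CPM in KO dendritic cells, against 245 ± 8.18 CPM in WT dendritic cells, and Cd79b, a chain of the B cell receptor, to 5.73 ± 0.508 CPM in KO, against 2.98 ± 0.136 CPM in WT dendritic cells (edgeR adjusted p = 0.000131 and 0.00752). Of 19 partners of BCL6 and BACH2, 4 rose and 1 fell, with Bach1 and Hdac7 up by 1.03 and 1.12 on the log2 scale. Of 16 plasma cell genes 4 rose and 4 fell, with Cxcr4 at 0.51 and Cd44 at -1.36. Of 30 genes of the unfolded protein response none rose and 4 fell, Eif2ak3, Pdia3, Herpud1 and Calr, by 0.27, 0.27, 0.24 and 0.22 on the log2 scale. Of 14 genes linked to BCL6 and BLIMP1 in T cells 4 rose and 2 fell. The median changes of the 5 lists, in this order, were 0.336, 0.195, 0.131, -0.093 and 0.042, against -0.011 over all genes. The count of 8 called identity genes was 3 without KO replicate 2, and that of 8 plasma cell genes was 4 without KO replicate 1 or 2 and 5 without KO replicate 3 or WT replicate 3. The count of 4 genes of the unfolded protein response was 0 without KO replicate 2 or 3, 1 without KO replicate 1 or WT replicate 3, and 8 without WT replicate 1.

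In macrophages none of the 7 tested genes was called, where 0.885% of all tested genes were, and DESeq2 called none either. An unadjusted p under 0.05 was given to 3 of them by edgeR, where 17.8% of all genes had one. Bach2 had 1.75, 2.22 and 1.74 CPM in KO macrophages, against 2.89, 4.87 and 2.86 CPM in WT macrophages (log2 change -0.87, SE 0.29, edgeR adjusted p = 0.192). Xbp1 had 193.8, 210.8 and 218.6 CPM in KO macrophages, against 283.3, 250.1 and 281.2 CPM in WT macrophages (log2 change -0.36, SE 0.11, edgeR adjusted p = 0.162). Prdm1 had 54.45, 45.78 and 51.18 CPM in KO macrophages, against 41.79, 38.86 and 45.13 CPM in WT macrophages (log2 change 0.29, SE 0.11, edgeR adjusted p = 0.241). Groups did not overlap for any of these 3, as for 23.6% of all genes with a mean of 1 count or more.

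Sdc1, highest in this cell type, had 227.1, 199.6 and 155.8 CPM in KO macrophages, against 258.3, 222.6 and 127.7 CPM in WT macrophages, with a 95% interval of the log2 change of -0.66 to 0.59. The libraries numbered 3 were lowest in Sdc1 in both genotypes and highest in Jchain (1.64, 4.99 and 22.17 CPM in KO, 3.51, 3.00 and 16.13 CPM in WT macrophages) and in Mzb1 (1.42, 2.77 and 7.82 CPM in KO, 1.03, 1.03 and 4.19 CPM in WT). Neutrophil markers were also highest in those libraries, at 4130 CPM in KO and 4460 CPM in WT replicate 3, against group means of 3300 ± 727 and 2550 ± 1710 CPM. Mmp9 made up 75.9% of that sum, Ly6g, Cxcr2 and Retnlg were at 0, and S100a9 averaged 0 CPM in KO and 0.034 CPM in WT macrophages. Stromal and mesothelial markers were highest there too, at 590 CPM in KO and 339 CPM in WT replicate 3. Their group means were 407 ± 160 CPM in KO and 231 ± 104 CPM in WT macrophages. The part of either kind of cell was not tested. Without WT replicate 3, Bach2, Prdm1 and Xbp1 passed the edgeR test, with log2 changes of -1.0, 0.36 and -0.33 and adjusted p of 0.047, 0.041 and 0.043. With all macrophage libraries, neither Bcl6 (log2 change -0.30, SE 0.17) nor Mzb1 (0.97, SE 0.76) was called. With the replicate number as a block the SE of Mzb1 was 0.27, still without a call (edgeR adjusted p = 0.118). Pax5 and Ebf1 were too low to be tested, at no more than 0.78 and 0.41 CPM in any macrophage library. No gene of the 5 lists was called in macrophages, while with the replicate number as a block, which pairs these libraries, 2 identity genes fell, 1 partner of BCL6 and BACH2 rose and 1 gene of the T cell list fell. The unfolded protein response list had a median log2 change of -0.24 over 30 tested genes, against -0.02 over all genes. Without WT replicate 3 that list had 6 calls, the identity list 6, the list of BCL6 and BACH2 partners 8, the plasma cell list 4 and the T cell list 2.

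In CD4 T cells none of the 7 tested genes was called, where 2.15% of all tested genes were, and DESeq2 called none. By edgeR 3 had an unadjusted p under 0.05, where 18.1% of all genes had one. Bcl6, the regulator of follicular helper T cells, had 3.63, 3.42 and 4.05 CPM in KO T cells, against 6.44, 6.19 and 4.52 CPM in WT T cells, without overlap, as for 21.3% of all genes with a mean of 1 count or more (log2 change -0.62, SE 0.19, edgeR adjusted p = 0.0963). Bach2 was nearly level, at 197.6, 204.2 and 201.5 CPM in KO T cells and 209.1, 224.1 and 201.3 CPM in WT T cells (95% interval of the log2 change -0.17 to 0.03). Xbp1 had 147.6, 162.9 and 155.7 CPM in KO T cells, against 128.3, 128.7 and 149.6 CPM in WT T cells, with 1 KO library below the highest WT one (log2 change 0.20, SE 0.06, edgeR adjusted p = 0.115).

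Pax5 had 4.15, 3.25 and 2.41 CPM in KO T cells, against 1.43, 1.31 and 2.84 CPM in WT T cells (log2 change 0.80, SE 0.32, edgeR adjusted p = 0.209). B cell markers summed to 43.5 ± 12.9 CPM in KO T cells and 27.3 ± 7.82 CPM in WT T cells (exact permutation p = 0.2), and their part was not tested. Without WT replicate 3, Pax5, Bcl6 and Xbp1 passed the edgeR test, with log2 changes of 1.24, -0.77 and 0.28 and adjusted p of 0.039, 0.034 and 0.0064. Prdm1 (0.21, 0.81 and 0.34 CPM in KO, 0.27, 0.35 and 0.27 CPM in WT T cells) and Jchain (1 count in all 6 libraries) were too low to be tested. Ebf1, Mzb1 and Sdc1 were at no more than 2.30 CPM in any T cell library and were not called. Over all genes tested in T cells, 1.35% rose and 0.798% fell. Of the lists, 2 of 27 identity genes rose in KO T cells, Ets1 by 0.32 and the class II transactivator Ciita by 1.16 on the log2 scale. A single gene each of the partner list (Bach1, 0.60) and the plasma cell list (Cxcr4, 0.85) rose, Il2 fell by 0.90 in the T cell list, and no gene of the unfolded protein response list was called. These counts of 0 to 2 also turned on single libraries, since each of the 6 T cell libraries, left out, changed the count of at least 1 list, over a range of 1 to 3 identity genes, 0 to 1 partners, 0 to 3 plasma cell genes, 0 to 3 genes of the unfolded protein response and 0 to 4 genes of the T cell list.

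**Figure D4:**
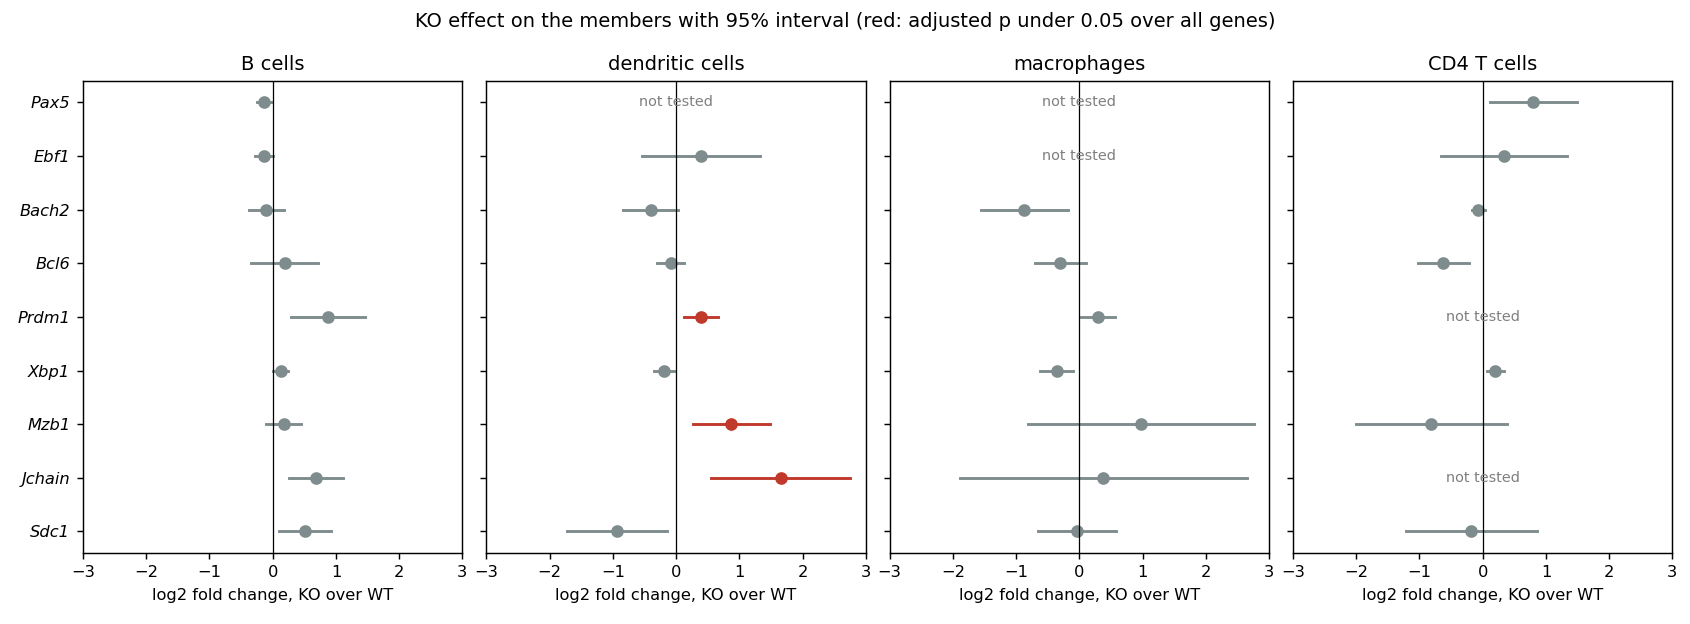
Log2 change of KO against WT for each of the 9 genes in each cell type where it was tested, with 95% intervals and called changes in red. The red points are Prdm1, Mzb1 and Jchain in dendritic cells, and the Xbp1 points lie above 0 in B and T cells and below 0 in dendritic cells and macrophages.

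A fit of the 24 libraries together compared the KO effect of the 4 cell types. It differed for 2 of the 9 genes, Xbp1 (F of 12.16, edgeR adjusted p = 0.0026) and Pax5 (F of 5.52, edgeR adjusted p = 0.0465), where 12.6% of all tested genes passed. In the separate fits of each cell type, the changes of Xbp1 were 0.13 in B cells and 0.20 in T cells, and -0.19 in dendritic cells and -0.36 in macrophages. In the fit of all 24 libraries, its effect in B cells was 0.51 (SE 0.11, edgeR adjusted p = 0.0138) above that in macrophages on the log2 scale. It was the 1 call of the 9 in that pair, where 2.67% of all tested genes passed. None of the 9 passed between B cells and dendritic cells, where 5.63% of all tested genes did, or between B cells and T cells, where 0.0571% did. At an unadjusted p under 0.05, edgeR gave a difference from dendritic cells for Pax5, Xbp1 and Sdc1, from macrophages for Bach2, Bcl6, Prdm1 and Xbp1, and from T cells for Pax5 and Bcl6.

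The Pax5 call rests in part on cell types in which it stood under 1 CPM, and it was lost when any of 18 of the 24 libraries was left out. The effect on Prdm1 was not shown to differ between cell types (edgeR adjusted p = 0.287). In the separate fits its changes were 0.88 in B cells, 0.39 in dendritic cells and 0.29 in macrophages. Nor was that on Jchain (edgeR adjusted p = 0.817), at 0.69 in B cells, 1.65 in dendritic cells and 0.38 in macrophages in the separate fits.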

How the data were processed

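Messenger RNA of 24 libraries was measured, and the deposited files hold raw counts of reads per gene symbol, not normalized, as the authors made them. Per the submitters' processing notes, reads were handled with cutadapt and STAR on mm9. The counting tool, its strand setting and all versions are not given in any source used here. Of the lines that name no gene, left out here, reads outside any feature held 51.4 to 61.1% of a library's counts.

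Counts were fitted within each cell type with edgeR 4.0.16 in R 4.3.3 (TMM scaling, filterByExpr, robust quasi-likelihood F test), and a call is a Benjamini-Hochberg adjusted p below 0.05 over all tested genes. Log2 changes are KO minus WT, or B cells minus the other type. An SE is the log2 change over the root of F, and intervals are 95%. WT cell types were compared in 1 fit of the 12 WT libraries, and differences in KO effect in 1 fit of all 24. CPM were scaled over all 24 libraries, and coding lengths are from GENCODE M21. Likeness was computed over 24 libraries on log2 CPM (prior count 2) among genes with a group mean of 5 CPM or more. Exact permutation tests were two-sided. DESeq2 1.42.0, other filters and scalings, each library left out and a replicate block were tried. Tests were checked on simulated data.

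From each list, the rule names the called genes with the 4 smallest p in a cell type, and Spi1, Irf4, Irf8 and Ell2 in B cells whatever their p. Some genes this rule takes are not reported here. Spib was named after its value was seen, as were genes of the marker lists beyond that with the largest share. The members and lists were chosen with earlier results of these data known. The libraries numbered alike in both genotypes correlated by over 0.1 in every pair in macrophages only (r of 0.145, 0.381 and 0.451), so the numbers were taken to pair those libraries. The macrophage tests above are still from the fit without the block, unless the block is named. The block changed no macrophage call of the 9 genes, though it changed some SE. The titles of the WT B cells number the libraries 1 to 3 while the deposited files carry 1, 3 and 4; the titles were followed, and the B cell pairing and block rest on that choice. All list symbols were matched directly except Tent5c, listed as Fam46c.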

Additional observations from a re-analysis of the deposited data

Results flagged for a closer look

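The KO effect on Xbp1 differed between the 4 cell types in the fit of all 24 libraries (F of 12.16). There it was 0.51 higher in B cells than in macrophages. Log2 changes of single cell types given here are from the separate fits. Those of Xbp1 were 0.13 in B cells and 0.20 in T cells, and -0.19 in dendritic cells and -0.36 in macrophages. The effect on Pax5 passed the same test over the 4 cell types (F of 5.52), with log2 changes of -0.14 in B cells and 0.80 in T cells, neither of them called. The difference between B and T cells alone did not pass (edgeR adjusted p = 0.4), and the call over the 4 cell types was lost with the replicate block and without any of 18 of the 24 libraries. B cell markers summed to 43.5 CPM in KO T cells and 27.3 CPM in WT T cells, and their part was not tested. Among genes of the lists around the 9, the effect on Hdac7 differed between cell types (F of 25.06, edgeR adjusted p = 7.7e-05), with a fall of -0.48 in B cells and a rise of 1.12 in dendritic cells, both called. The effect on Ciita differed likewise (F of 11.58, edgeR adjusted p = 0.0033), at -0.37 in dendritic cells and 1.16 in T cells, both called.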

How the results depend on the processing

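Over single genes and settings, 1054 values kept their side of the threshold, 37 lost a call, 22 gained one and none reversed. Direction was compared only where a fit made a call, and not for the F test between cell types. Some changes without a call switched sign, such as Bcl6 in B cells (-0.04 to 0.39 with a library left out). In B cells, none of the 9 genes was called, against 1 with no filter on low counts (Jchain), 1 in the fit of all 24 libraries (Prdm1) and 0 to 1 with a library left out. In dendritic cells the count of 3 became 0 in the fit of all 24 libraries and 0 to 3 with a library left out; DESeq2 lost Mzb1 (adjusted p = 0.097) and no filter lost Jchain (adjusted p = 0.096). In macrophages the count of 0 became 2 in the fit of all 24 libraries (Bach2, adjusted p = 0.02, and Xbp1, 0.0024) and 0 to 3 with a library left out. In T cells it ranged from 0 to 3 with a library left out. The count of 2 genes whose KO effect differed between cell types ranged from 1 to 2 with a library left out. The counts between WT cell types stayed at 6, 6 and 8 to 9. Without both macrophage libraries numbered 3, chosen after seeing the data, none of the 9 genes was called, and the 5 lists had 4, 6, 2, 4 and 2 calls. The cause of these changes was not tested.

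With the replicate number as a block, B cells had 5 of the 9 genes called, at log2 changes of -0.14 for Pax5, 0.89 for Prdm1, 0.13 for Xbp1, 0.17 for Mzb1 and 0.70 for Jchain, while 1260 genes in all were called, against 325 without the block. Same-numbered B cell libraries correlated by 0.314, 0.096 and 0.365, and not every library correlated best with its own number, so in B cells, as in dendritic and T cells, the samples were taken to share only a number. The deposited files of the WT B cells are numbered 1, 3 and 4 in their names and 1 to 3 in the titles, so these correlations and the block calls in B cells rest on the numbering of the titles. Under the block 19 genes of the unfolded protein response list rose in B cells, against 4, and 12 identity genes fell, against 3. In the B cell list counts, the other settings gave 1 to 7 identity genes, 1 to 3 plasma cell genes and 0 to 11 genes of the unfolded protein response. In macrophages the block raised the calls over all genes to 265, against 95. The fit of all 24 libraries gave 2 to 8 calls in each macrophage list, against none. For the difference between cell types the block gave 3 genes, since it lost Pax5 and gained Bach2 and Prdm1. DESeq2's size factors moved the median of all genes by at most 0.081 in size.

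Levels under about 1 CPM rest on a few counts per library, which limits what can be said of Pax5 and Ebf1 in myeloid cells and of Prdm1 and Jchain in T cells.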
